A study of Mus musculus with 2 samples.

Results

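The transcription factor gene Myc and 31 genes of ribosome production and cell growth were followed in tumour-infiltrating cells that carried the natural killer (NK) cell receptor gene Ncr1. The 32 genes were taken by symbol, out of 53715 genes in the count tables, and each symbol matched 1 row. Of the 32, 31 had at least 1 UMI, a unique molecular identifier that counts 1 captured RNA molecule. The cells had been sorted as CD45.2+CD3-NKp46+ from tumours of CT26_b2m-/-, a mouse colon carcinoma line whose name says that it lacks B2m, which every MHC class I molecule needs at the surface. The title of 1 sample is IL-15SA and that of the other IL-15SA+IL-21Fc, called the combination library here, so both groups shared IL-15SA and the tumour line. Cells of 1 treatment were pooled before loading. Each group thus had 1 library, no difference below has a replicate check, and all intervals are 95% intervals that cover counting error only. The sources used here state no dose, time, age or strain of the mice.

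MYC is a transcription factor that binds DNA together with its partner MAX, often at the E-box sequence CACGTG, and it is known for raising the production of ribosomes and the synthesis of nucleotides and polyamines in growing cells. Ribosomes are made in the nucleolus: RNA polymerase I transcribes a long precursor of ribosomal RNA, small nucleolar ribonucleoproteins (snoRNPs) modify it, and separate sets of factors assemble the small and the large subunit. In NK cells, cytokines such as IL-15 are known to induce MYC together with growth in size and division.

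The E-box was looked for in the promoters of the members, because it links the list to its name through sequence and not through expression. RefSeq promoters on GRCm38.p6, from 250 bases before to 50 bases after the annotated start, were found for 25 of the 32 members. CACGTG, which reads the same on both strands, was present in 8 of the 25 (32%), against 8.09% of 27025 genes with such a promoter and 12.3% of the 5876 genes that also reached 10 CPM over all barcodes (CPM, UMIs of a gene per 1000000 UMIs). A match is a string of letters in this window and no evidence of binding. The 25 members were not filtered by level, unlike the 5876 genes. The stretches around the E-box are shown for the 6 members with a mean of at least 10 CPM in non-cycling cells. They run 5′ to 3′ along the strand of the gene, with the E-box in capitals. The position of its first base is counted from the annotated start as 1.

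Ran: gctcggccggccCACGTGacccgccgcccc

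Eif4a1: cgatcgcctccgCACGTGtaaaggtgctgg

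Nop2: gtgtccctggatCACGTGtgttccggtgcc

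Pes1: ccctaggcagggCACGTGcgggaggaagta

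Wdr43: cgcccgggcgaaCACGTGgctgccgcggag

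Mybbp1a: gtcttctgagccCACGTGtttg

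The Ran stretch lies on the plus strand at chr5:129020026-129020055 with its E-box at position -118. The Eif4a1 stretch lies on the minus strand at chr11:69672595-69672624 with the E-box at position -189. For Nop2, on the plus strand at chr6:125131811-125131840, the position was -60. The other 3 E-boxes lay just after the annotated start, all on the plus strand: at position 3 for Pes1 (chr11:3963965-3963994), 18 for Wdr43 (chr17:71616220-71616249) and 41 for Mybbp1a (chr11:72441355-72441376). The window of Mybbp1a ends with the 300-base promoter and is therefore shorter. The 6 genes did not share a pattern of levels: Ran had the largest difference between cycling and non-cycling cells in both libraries, whereas Pes1 and Wdr43 were among the smallest. Utp20, under 10 CPM in non-cycling cells, and Nme1, with 0 UMIs, also held an E-box.

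The IL-15SA library held 7792 Ncr1-positive cells (92.9% of 8386 barcodes) with a median of 3165.5 UMIs, and the combination library 11050 (88.9% of 12435) with a median of 2424.5 UMIs. Only 60 of 20761 barcodes occurred in both libraries. Each cell was thinned to 1000 UMIs and classed by 65 genes of DNA replication and mitosis, none of them a member: cycling with 5 or more of these UMIs, non-cycling with 0 or 1, and between with 2 to 4. Cycling cells made up 41.3% of the IL-15SA library (40.2% to 42.4%) and 32.5% of the combination library (31.6% to 33.4%), and non-cycling cells 27.3% and 36.0%. The classes are ranges of a count and not cell types: 464 and 501 cells lay at 5 cycle UMIs, and 547 and 700 at 4. All 12 NK markers were detected in both libraries, and myeloid and B cell markers summed to at most 1.66 CPM in any class. The 6 markers of type 1 innate lymphoid cells were all detected too, at a sum of 255 and 359 CPM. This sum was 300 and 384 CPM in non-cycling and 229 and 330 CPM in cycling cells. The part of such cells in the library differences was not tested. The 9 T cell markers summed to 1441 and 1528 CPM, of which 1 gene held 1018 and 1025. Barcodes with at least 2 UMIs of 12 tumour or stroma genes were 8.0% and 13.1% of Ncr1-positive cells, and within cycling cells 9.82% and 17.1%. The members stood higher in such barcodes: their summed level was 8083 CPM in those of the combination library and 6328 in the rest, and 8794 and 8045 in the IL-15SA library. For the whole list in non-cycling and in cycling cells, the sum, median and counts between libraries are therefore given with and without these barcodes. Single genes are given both ways where leaving the barcodes out moved an interval across 1. All other values include these barcodes unless stated.

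Nearly all members were lower in the combination library, by a small amount, in non-cycling and in cycling cells alike. At matched depth fewer were lower in non-cycling cells, 18 to 21 of 27 by range of UMIs per cell. Levels in CPM are taken from the UMIs summed over a class, and genes with a mean of at least 10 CPM over the 2 values compared were counted. In non-cycling cells the 32 members together held 6594 CPM with IL-15SA and 5592 CPM in the combination library, a 1.18-fold lower level (1.16 to 1.19). In cycling cells they held 8906 and 7484 CPM, 1.19-fold lower (1.18 to 1.20). Without Npm1, Ncl, Eif4a1, Ran and Nop10, which give most of these UMIs, the fold was 1.13 (1.11 to 1.16) in non-cycling and 1.12 (1.10 to 1.14) in cycling cells. The sum of the 27 other members was thus lower too, by less.

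Gene by gene, 27 members reached 10 CPM in non-cycling cells, and 26 of them had a log2 ratio of combination over IL-15SA below 0, where 47.3% of 7219 genes did. Their median log2 ratio, with 1 CPM added to both levels, was -0.19, against 0.01 over all genes. The replication genes that helped to class the cells were lower within this class too, with 14 of 17 measured genes below 0 and a median of -0.16. The classes thus did not make the libraries equal in cycle genes, and the part of this in the member difference was not tested. The differences were small: 2 of 27 members, Rrs1 and Mybbp1a, were at least 20% lower (a ratio of at most 0.8), against a background of 4.2%, and 0 were at least 25% higher, against 9.35%. The interval of the ratio lay below 1 for 16 of the 27 (13.1% of all genes) and above 1 for 0 (15.8%). In cycling cells 28 members were measured, with a median of -0.17 against 0.00 for all genes, and 25 of them lay below 0 (49.5% of all genes). There 3 members, Npm1, Mybbp1a and Noc2l, were at least 20% lower (3.75% of all genes), and 19 intervals lay below 1 (17.1%).

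The barcodes with tumour or stroma UMIs moved the size of this difference and not its direction. Without them the median log2 ratio was -0.23 in non-cycling cells, with 26 of 27 members below 0 (48.1% of all genes), and -0.31 in cycling cells, with 25 of 27 below 0 (52.2%). The number of members at least 20% lower went to 4 in non-cycling cells (4.94% of all genes) and to 11 of 27 in cycling cells (5.04% of all genes). Intervals below 1 were then 16 of 27 in non-cycling cells (13.1% of all genes) and 22 of 27 in cycling cells (17.6%). The summed members were at 6484 and 5441 CPM in non-cycling cells (ratio 0.84, 0.83 to 0.85) and at 8873 and 7092 CPM in cycling cells (ratio 0.80, 0.79 to 0.81). Mybbp1a, in cycling cells at 45.4 and 35.2 CPM with these barcodes, was at 43.6 and 26.9 CPM without them (ratio 0.62, 0.53 to 0.71). Wdr12 and Eif4a1, whose intervals in cycling cells included 1, had ratios of 0.80 (0.71 to 0.91) and 0.96 (0.93 to 0.99) there. In all Ncr1-positive cells together the median was -0.22 with these barcodes and -0.32 without them. With the 3 classes weighted in both libraries as they stood with IL-15SA, the all-cell median was -0.18.

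**Figure D1:**
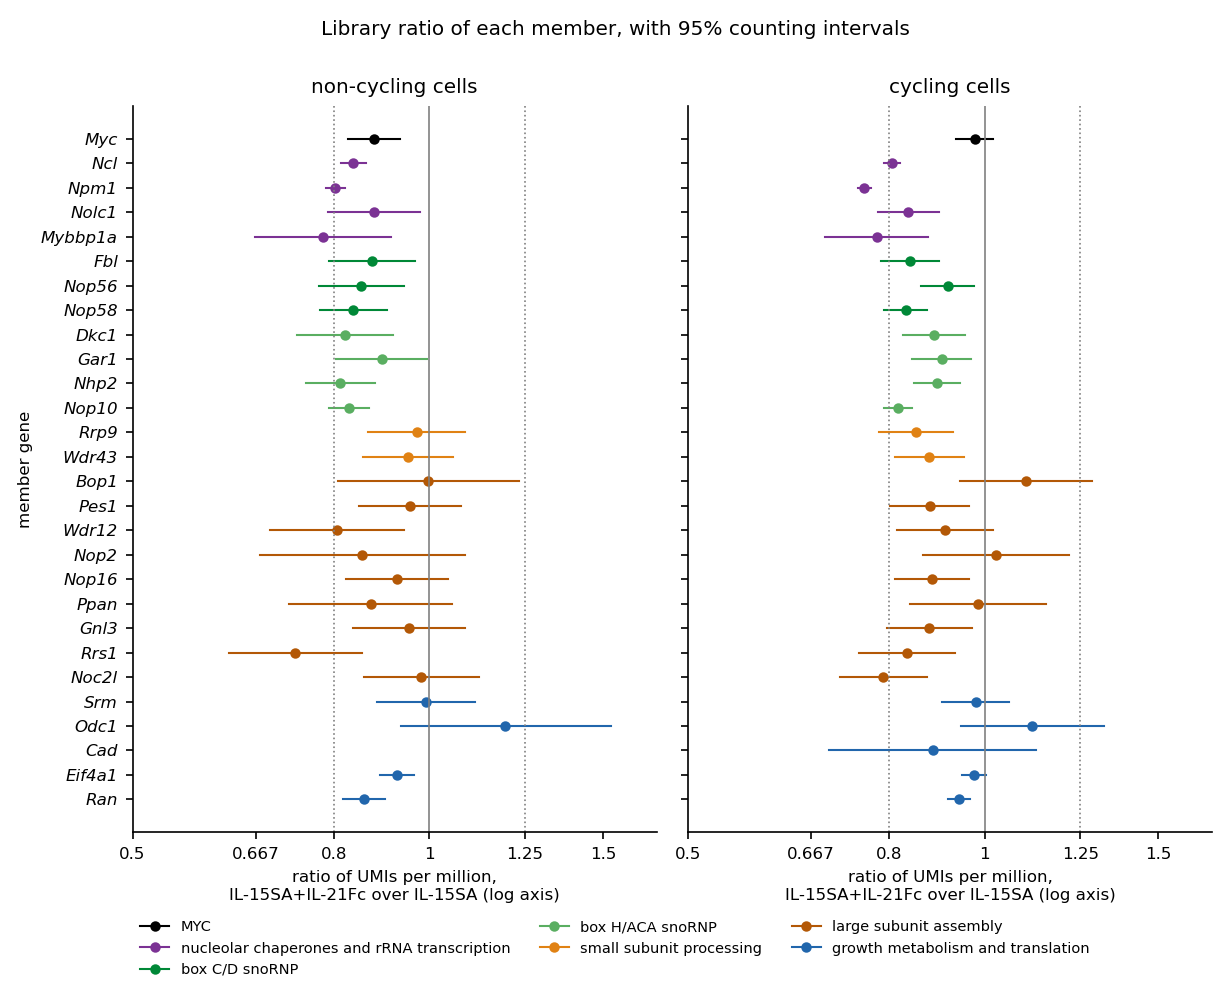
Ratio of CPM in the IL-15SA+IL-21Fc library over the IL-15SA library for each measured member, in non-cycling (left) and cycling (right) cells, on a log axis, with 95% counting intervals as lines and colours for roles. Dotted lines mark 20% lower and 25% higher. Most points lie left of 1, and Odc1 is the only member to the right of 1 in non-cycling cells.

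Myc itself (chr15:61985391-61990374 on mm10, plus strand) was at 273 CPM (261 to 285) in non-cycling cells of the IL-15SA library and at 240 CPM (230 to 249) in those of the combination library. The ratio was 0.88 (0.83 to 0.93). In cycling cells its levels were 301 CPM (292 to 310) and 294 CPM (285 to 304) (ratio 0.98, 0.94 to 1.02), so that no difference beyond counting error was seen there. Without the barcodes with tumour or stroma UMIs the cycling ratio was 0.99 (0.95 to 1.04) and the non-cycling ratio 0.86 (0.81 to 0.92). In cycling cells the members as a group were therefore lower while the Myc transcript was not measurably so.

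The nucleolar chaperones and the factors of ribosomal RNA transcription had the lowest median ratio of the role groups in non-cycling cells, a log2 ratio of -0.29 over 4 measured genes. Npm1 (chr11:33152287-33163206) encodes nucleophosmin, an abundant nucleolar histone and ribosome chaperone. It was at 2046 CPM (2012 to 2079) and 1641 CPM (1616 to 1667) in non-cycling cells (ratio 0.80, 0.78 to 0.82). In cycling cells Npm1 was at 2710 and 2045 CPM, 1.33-fold lower (1.30 to 1.35), and without tumour or stroma barcodes at 2699 and 1914 CPM. Ncl encodes nucleolin, which binds ribosomal RNA precursors, and stood at 1240 and 1038 CPM in non-cycling cells and at 1771 and 1425 CPM in cycling cells. Mybbp1a, a nucleolar protein that takes part in rRNA transcription and processing, was at 43.2 and 33.7 CPM in non-cycling cells, 1.28-fold lower (1.09 to 1.50). Nolc1, a chaperone that carries snoRNPs between nucleolus and Cajal bodies, was at 88.1 and 77.4 CPM, 1.14-fold lower (1.02 to 1.27). For Polr1b, the second largest subunit of RNA polymerase I, 33 and 38 UMIs were too few for a comparison.

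The core proteins of both kinds of snoRNP were lower too. Box C/D particles guide methylation of ribosomal RNA: Nop58, a scaffold protein of them, was at 170 and 143 CPM in non-cycling cells, 1.19-fold lower (1.10 to 1.29), Nop56 at 104 and 88.9 CPM, and the methyltransferase gene Fbl at 102 and 89.1 CPM, 1.14-fold lower (1.03 to 1.26). Box H/ACA particles guide the formation of pseudouridine. Their members Nop10 (483 and 401 CPM) and Nhp2 (161 and 131 CPM) were 1.21-fold (1.15 to 1.26) and 1.23-fold (1.14 to 1.34) lower. Dkc1, the pseudouridine synthase, was at 83.4 and 68.4 CPM. Gar1, at 89.5 and 80.0 CPM, had the smallest difference, 1.12-fold (1.01 to 1.24). All 7 snoRNP genes had intervals off 1 in non-cycling cells, but without tumour or stroma barcodes that of Gar1 reached 1 (ratio 0.89, 0.80 to 1.00). Their median log2 ratios were -0.23 for box C/D and -0.28 for box H/ACA. Exons of Nop56 share 8.0% of their bases with snoRNA genes on the same strand, whose reads may be counted with it. Other members also share exon bases with genes on the same strand: Eif4a1 6.6%, Ppan 4.1%, Gnl3 3.9%, Ncl 2.1% and Nop58 0.8%.

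Factors that process and assemble the subunits differed less in non-cycling cells, with median log2 ratios of -0.06 (small subunit) and -0.11 (large subunit). Without tumour or stroma barcodes these medians were -0.08 and -0.19, beside -0.23 for box C/D and -0.27 for box H/ACA genes. Of the small subunit factors, Wdr43 was at 88.2 and 83.9 CPM and Rrp9, which binds U3 snoRNA, at 75.6 and 73.4 CPM, and both intervals included 1. Rrp12 (6.71 and 6.63 CPM) and Utp20 (8.71 and 8.14 CPM) were under 10 CPM. In cycling cells Rrp9 was at 83.2 and 70.9 CPM, 1.17-fold lower (1.08 to 1.28), and Wdr43 at 93.9 and 82.4 CPM. Of the 9 large subunit factors, Rrs1, which brings the 5S particle into the precursor, had the largest difference: 47.0 and 34.3 CPM, 1.37-fold lower (1.17 to 1.60). Wdr12 was at 43.4 and 35.0 CPM, 1.24-fold lower (1.06 to 1.45). Its 2 partners in the PeBoW complex, which is needed to mature the large subunit RNA, had ratios nearer to 1: Pes1 was at 69.8 and 66.7 CPM (ratio 0.96, 0.85 to 1.08), and Bop1 at 22.3 and 22.2 CPM (ratio 1.00, 0.81 to 1.23). The other members of the group, Nop16, Gnl3, Noc2l, Ppan and Nop2, had log2 ratios from -0.21 to -0.03 with intervals that included 1. Without tumour or stroma barcodes the interval of Nop16 lay below 1, at 68.3 and 58.4 CPM (ratio 0.86, 0.75 to 0.97). In cycling cells Noc2l was at 63.2 and 49.9 CPM, 1.27-fold lower (1.14 to 1.40), but 20.9% of its exon bases overlap Samd11 on the opposite strand, and strand-specific counting is not stated.

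Among the genes of growth metabolism and translation, Ran, the GTPase that drives nuclear transport and thus export of ribosomal subunits, was at 417 and 358 CPM in non-cycling cells, 1.16-fold lower (1.11 to 1.22). Eif4a1, the helicase of the cap-binding complex, was at 606 and 562 CPM, 1.08-fold lower (1.04 to 1.12). Both polyamine enzymes had intervals that included 1. Srm, spermidine synthase, was at 72.5 and 71.9 CPM (ratio 0.99, 0.88 to 1.11). Odc1, ornithine decarboxylase, the first enzyme of polyamine synthesis, was at 15.4 and 18.4 CPM (ratio 1.19, 0.93 to 1.53), and was the only measured member above 0 in non-cycling cells. Without tumour or stroma barcodes, Srm in cycling cells was at 87.7 and 63.9 CPM (ratio 0.73, 0.66 to 0.80), whereas with them the levels were 95.3 and 93.2 CPM and the ratio 0.98 (0.91 to 1.06). The Srm result in cycling cells thus rested on which barcodes were counted. Cad, the first enzyme of pyrimidine synthesis, was at 6.28 and 5.02 CPM in non-cycling cells. Nme1, a nucleoside diphosphate kinase, had 0 UMIs in both libraries, and its neighbour Nme2 had 0 and 1. Both genes share exons with the read-through gene Gm20390 or lie within it, and how reads were assigned among them is not stated, so the 0 sets no limit on expression.

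Other genes of the same pathways, from lists of genes outside the 32, were mostly lower in non-cycling cells too. Of 41 measured large subunit factors 30 lay below 0, and their median log2 ratio was -0.10, beside -0.11 for the 9 members of that role. Of 40 small subunit factors 33 lay below 0 with a median of -0.14, beside -0.06 for Wdr43 and Rrp9. Over all genes 47.3% lay below 0. Without tumour or stroma barcodes the medians were -0.11 for the other large subunit factors and -0.19 for the 9 members. For the small subunit they were -0.13 for the other factors and -0.08 for Wdr43 and Rrp9. Then 29 of 41 large and 33 of 40 small subunit factors lay below 0, against 48.1% of all genes. Mdn1, the ATPase that remodels the large subunit precursor, was at 14.0 and 10.3 CPM (ratio 0.74, 0.56 to 0.99; 0.74, 0.55 to 1.02, without tumour or stroma barcodes), and its adaptor Nle1 at 21.1 and 16.6 CPM (ratio 0.78, 0.62 to 0.99). At the other end, Nol8 was at 32.7 and 40.2 CPM (ratio 1.23, 1.04 to 1.45), and the export adaptor Nmd3 at 30.4 and 34.8 CPM. Nol10 and Aatf were the lowest of the small subunit list, with ratios of 0.74 (0.59 to 0.93) and 0.77 (0.62 to 0.96), and Bysl and Rrp36 the highest, with intervals that included 1. Of the RNA polymerase I genes 2 of 13 were below 0 and the median was 0.05, but without tumour or stroma barcodes 7 of 12 were below 0 and the median was -0.01. At the low end were Polr1d at 200 and 185 CPM (ratio 0.93, 0.867 to 0.997) and the rDNA transcription factor Ubtf at 72.7 and 68.2 CPM. Highest were Tcof1 at 54.0 and 61.1 CPM (ratio 1.13, 0.99 to 1.29) and Taf1c at 10.1 and 12.9 CPM (ratio 1.27, 0.94 to 1.72). Without tumour or stroma barcodes the interval of Polr1d included 1 (ratio 0.93, 0.862 to 1.002). That of Tcof1 then lay above 1 (ratio 1.15, 1.01 to 1.32).

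Of 42 other genes known as MYC targets 39 were below 0 in non-cycling cells, against 47.3% of all genes. Their median log2 ratio was -0.18, and 8 were at least 20% lower, against 4.2% of all genes. Without tumour or stroma barcodes 37 of 41 were below 0 (48.1% of all genes), with a median of -0.20. Then 11 were at least 20% lower (4.94% of all genes). Slc7a5, the transporter chain for large neutral amino acids, was at 51.1 and 32.1 CPM, 1.59-fold lower (1.36 to 1.85), while Slc3a2, the heavy chain it pairs with, was at 278 and 308 CPM (ratio 1.11, 1.05 to 1.18). Mthfd2, an enzyme of mitochondrial folate metabolism, was at 57.7 and 38.6 CPM, 1.50-fold lower (1.30 to 1.72). Dhodh, of pyrimidine synthesis, was at 14.3 and 15.3 CPM. The partners and regulators of MYC had a median of 0.00 over 13 genes. Within that list Mxd1 and Mxd4, which compete with MYC for MAX, stood at 82.4 and 110 CPM and at 71.2 and 95.4 CPM, with the same ratio of 1.34 and intervals of 1.21 to 1.49 and 1.20 to 1.50. Ruvbl2, an ATPase that also helps to build snoRNPs, was at 82.6 and 68.5 CPM (ratio 0.83, 0.74 to 0.93), and Fbxw7, which marks MYC for degradation, at 31.3 and 26.3 CPM with an interval that included 1 (ratio 0.84, 0.70 to 1.01), and that lay below 1 without tumour or stroma barcodes (ratio 0.82, 0.678 to 0.995).

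Within each library the members were higher in cycling than in non-cycling cells, by amounts that differed between roles. The median log2 ratio of cycling over non-cycling was 0.24 in the IL-15SA library, with 26 of 27 members above 0 (56% of all genes), and 0.32 in the combination library, with 22 of 27 above 0 (54.5%). At least 25% higher were 13 of 27 members in each library, against 21.7% and 23.2% of all genes. Without tumour or stroma barcodes both medians were 0.24. Then 25 and 20 of 27 members lay above 0, and 2 and 7 below 0, against 43.8% and 47.2% of all genes below 0. At least 25% higher were then 12 and 10 of 27, against 22.7% and 21.2% of all genes. Cycling cells also held more UMIs, a median of 3928 against 2914 in non-cycling cells with IL-15SA and 3291 against 2210 in the combination library, and the part of depth in this contrast was not tested. Ran was at 417 CPM in non-cycling and 847 CPM in cycling cells of the IL-15SA library, 2.03-fold higher (1.95 to 2.12), and at 358 and 797 CPM in the combination library, 2.23-fold higher (2.14 to 2.31). Nop56 was 1.46-fold (1.35 to 1.60) and 1.57-fold (1.45 to 1.71) higher, and Nop58 1.48-fold (1.38 to 1.58) and 1.47-fold (1.37 to 1.57). The lowest members were Ppan, with ratios of 0.80 (0.67 to 0.96) and 0.91 (0.77 to 1.08), Pes1, with 1.03 (0.92 to 1.15) and 0.95 (0.85 to 1.05), and Wdr43, with 1.06 (0.97 to 1.17) and 0.98 (0.90 to 1.08). The snoRNP groups had medians of 0.44 to 0.55, whereas the large subunit group had 0.10 and 0.17. Cad, whose mean over the 2 classes was under 10 CPM in each library, had ratios of 1.74 (1.24 to 2.48) and 1.92 (1.38 to 2.72). The genes of cytosolic ribosomal proteins went the other way, with medians of -0.17 and -0.15 over 85 and 84 genes. Myc was 1.10-fold (1.05 to 1.17) and 1.23-fold (1.17 to 1.29) higher.

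Cycling cells were then divided by which phase led: 1323 and 1472 cells had more S than G2/M UMIs and 1743 and 1925 more G2/M than S UMIs, and 153 and 192 with equal numbers were left out. The members were higher in S-leaning cells in both libraries. Their sum was 10690 CPM in S-leaning and 7540 CPM in G2/M-leaning cells of the IL-15SA library, and 8662 and 6511 CPM in the combination library. The median log2 ratio was 0.60, with 27 of 28 members above 0 (46.7% of all genes) and 24 at least 25% higher (12.6% of all genes), and 0.53, with 26 of 27 above 0 (47.9%) and 23 at least 25% higher (11.8%). Over all genes the medians were -0.02 and -0.01. Without tumour or stroma barcodes both medians were 0.63. G2/M-leaning cells lay closer to the non-cycling sums of 6594 and 5592 CPM than S-leaning cells did.

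Srm led this contrast: it was at 137 CPM in S-leaning and 63.2 CPM in G2/M-leaning cells of the IL-15SA library, 2.17-fold higher (1.94 to 2.43), and at 129 and 63.9 CPM in the combination library, 2.01-fold higher (1.79 to 2.27). Without tumour or stroma barcodes it was 2.32-fold (2.04 to 2.63) and 2.52-fold (2.14 to 2.98) higher, whereas its ratio of cycling over non-cycling in the combination library went from 1.30 (1.18 to 1.42) with them to 1.03 (0.92 to 1.16). Nolc1 was at 171 and 88.8 CPM, 1.92-fold higher (1.74 to 2.12), and at 135 and 79.1 CPM, 1.7-fold higher (1.52 to 1.90). For Noc2l the ratios were 1.66 (1.45 to 1.90) and 1.88 (1.60 to 2.21), and for Ncl 1.60 (1.56 to 1.64) and 1.48 (1.44 to 1.53). Pes1 and Rrp9, whose intervals for cycling over non-cycling cells included 1 in both libraries, differed here: Pes1 was at 87.2 and 60.2 CPM, 1.45-fold higher (1.28 to 1.65), and at 75.6 and 53.8 CPM, 1.41-fold higher (1.22 to 1.62). Rrp9 was 1.75-fold (1.55 to 1.97) and 1.54-fold (1.35 to 1.76) higher. In these genes the value of all cycling cells averages a low level in G2/M-leaning and a high one in S-leaning cells.

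Myc, Ran and Odc1 were less than 25% higher in both libraries, as were Ppan with IL-15SA (ratio 1.22, 0.98 to 1.53) and Wdr43 in the combination library (ratio 1.14, 1.01 to 1.29). Myc was at 317 CPM (303 to 332) in S-leaning and 290 CPM (278 to 302) in G2/M-leaning cells of the IL-15SA library (ratio 1.09, 1.03 to 1.16), and at 307 and 291 CPM in the combination library (ratio 1.06, 0.99 to 1.13). Ran stayed high in both phases, with 896 and 808 CPM and with 832 and 770 CPM, ratios of 1.11 (1.07 to 1.15) and 1.08 (1.04 to 1.13). Odc1 had ratios of 0.93 (0.72 to 1.19) and 0.92 (0.72 to 1.18). Across the 4 classes from non-cycling to G2/M-leaning, Myc ran from 273 to 317 CPM with IL-15SA and from 240 to 307 CPM in the combination library. As a fold between lowest and highest class, this was a narrower range than that of Npm1, Nolc1 or Srm. A small range was not particular to Myc in the combination library. There Wdr43 was at 83.9 CPM in non-cycling, 89.2 in S-leaning and 78.0 in G2/M-leaning cells. With IL-15SA Wdr43 was at 88.2, 116 and 78.2 CPM in these classes.

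**Figure D2:**
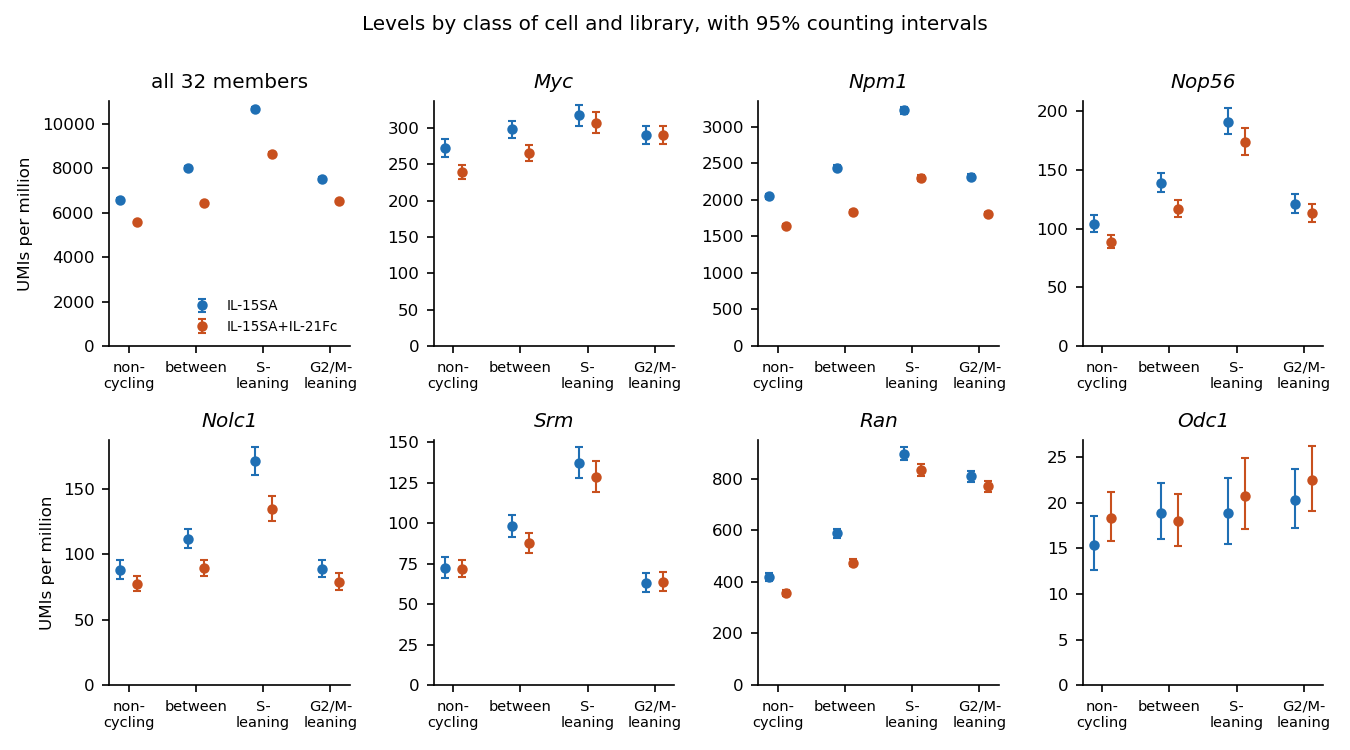
CPM in non-cycling, between, S-leaning and G2/M-leaning cells of the IL-15SA (blue) and IL-15SA+IL-21Fc (orange) library, for the sum of the 32 members and for 7 of them, with 95% counting intervals and axes from 0. The sum peaks in S-leaning cells at 10690 and 8662, Ran stays high in G2/M-leaning cells, and Myc varies little.

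**Figure D3:**
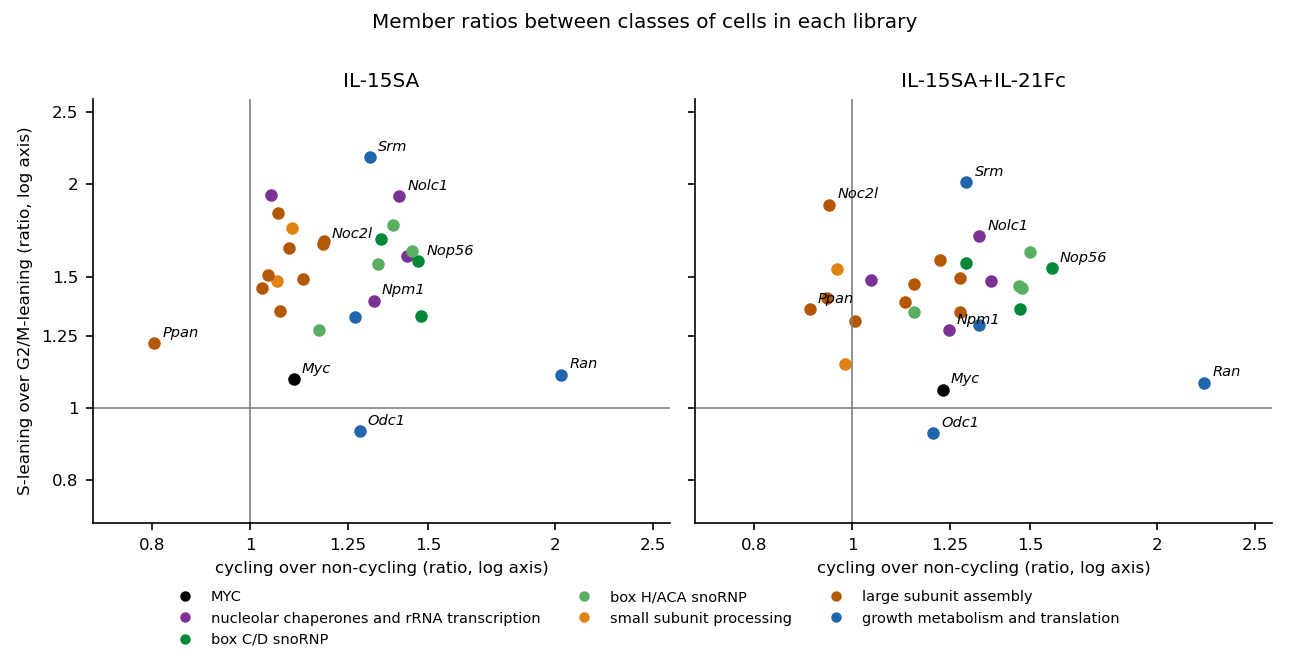
Ratio of S-leaning over G2/M-leaning cells (vertical) against the ratio of cycling over non-cycling cells (horizontal) for each measured member, 1 panel per library, both axes on a log scale and colours for roles. Srm lies highest with 2.17 and 2.01, Ran lies alone to the right with 2.03 and 2.23, and Myc and Odc1 lie near 1 on the vertical axis.

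Over single cells the members varied together. The summed count residuals of the members at odd places of the alphabetical list and of those at even places, after allowing for the UMI total of each cell, had a Pearson r of 0.47 over 2130 non-cycling cells of the IL-15SA library and 0.41 over 3975 of the combination library. In cycling cells r was 0.59 over 3219 and 0.55 over 3589 cells. These are descriptions of cells that share a library and carry no p-value. They depend on depth: with every cell thinned to 1000 UMIs they were 0.22 and 0.22 in non-cycling and 0.24 and 0.26 in cycling cells. Single pairs were weak, with a median r of 0.05 and 0.04 over 351 pairs in non-cycling and 0.07 and 0.06 over 378 pairs in cycling cells, where the median over all pairs of genes was 0.00 in each. The strongest pair was Ncl with Npm1, at 0.32 and 0.21 in non-cycling and 0.53 and 0.39 in cycling cells.

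Each member was then set against the sum of the others: 24 and 21 of 27 members in non-cycling cells had an r of at least 0.1, against 4.39% and 3.52% of all genes. In cycling cells it was 25 of 28 in both libraries, against 8.26% and 9.8%. Ncl had 0.46 and 0.35 in non-cycling cells, Npm1 0.36 and 0.29, Ran 0.32 and 0.27, Eif4a1 0.29 and 0.23 and Srm 0.25 and 0.22. The snoRNP scaffold Nop58 had 0.23 in each. Large subunit factors differed among themselves: Bop1 had 0.08 and 0.07 and Ppan 0.12 and 0.05, but Nop16 had 0.18 and 0.20. The medians over all measured members were 0.17 and 0.14. Bop1 stood at only 22.3 and 22.2 CPM and Ppan at 28.7 and 25.0 CPM. The part of low counts in their r was not tested. The sum of the members went with lists outside the 32 in the same cells: in non-cycling cells r was 0.58 and 0.53 with the other MYC targets, 0.39 and 0.33 with the other large subunit factors and 0.35 and 0.31 with the other small subunit factors, but 0.04 and 0.07 with the RNA polymerase I genes. In cycling cells r of the sum was 0.19 and 0.18 with the RNA polymerase I genes, beside 0.73 and 0.70 with the other MYC targets. In non-cycling cells the sum also went with the UMI total of the cell, at 0.20 and 0.17, although that total had been allowed for.

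**Figure D4:**
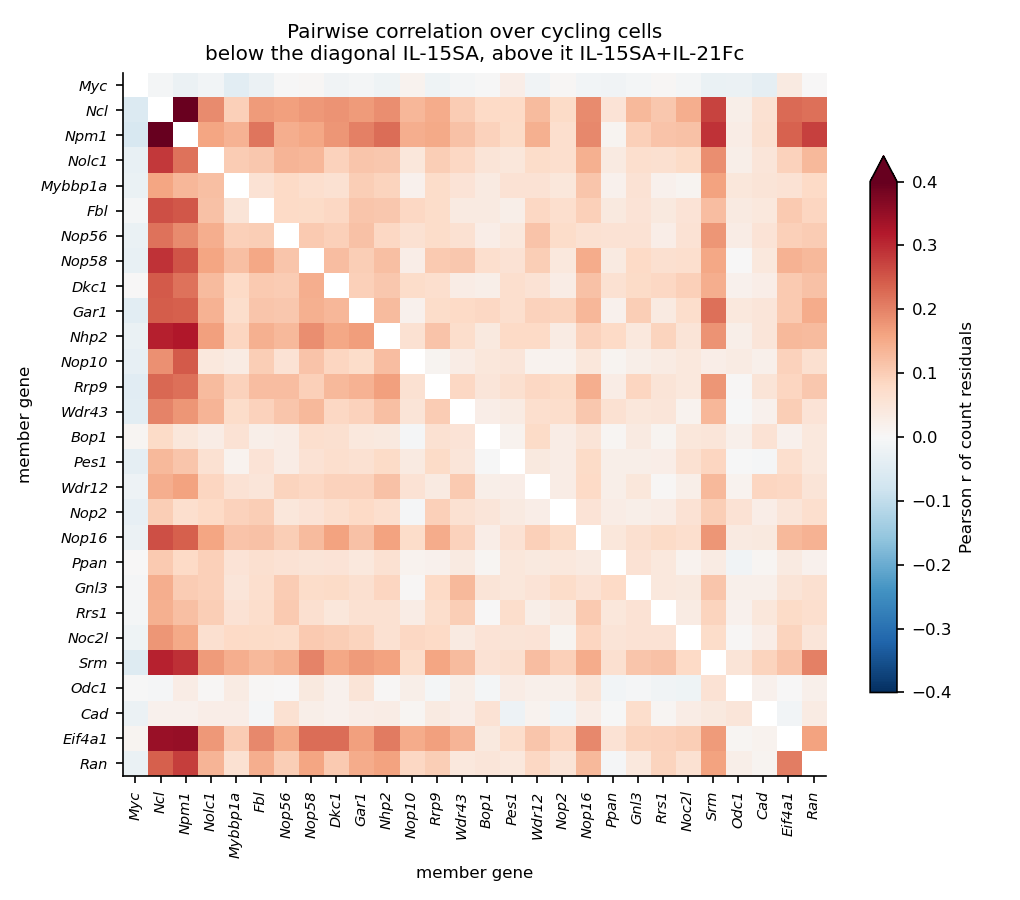
Pearson r of count residuals for each pair of 28 members over cycling cells, below the diagonal for the IL-15SA library and above it for the IL-15SA+IL-21Fc library, with red for positive and blue for negative values. Ncl, Npm1, Srm, Eif4a1 and Ran form the darkest rows, and the row and column of Myc are pale throughout.

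Myc showed no such co-variation. Its r with the sum of the other members was -0.01 and -0.02 in non-cycling cells and -0.07 and -0.03 in cycling cells, the lowest of the measured members in each of the 4 sets of cells. Nop58, which had fewer UMIs than Myc in the same non-cycling cells, stood at 0.23 in each library. With log-transformed counts the values for Myc were 0.04, 0.02, 0.04 and 0.06, and without tumour or stroma barcodes the value in cycling cells of the combination library was 0.02. Cells were also split by their Myc UMIs. After thinning, 1653 non-cycling cells of the IL-15SA library had 0 Myc UMIs and held 6011 CPM of the other members (5894 to 6131), and 123 cells with at least 2 Myc UMIs held 6098 CPM (5669 to 6550). In the combination library it was 5154 CPM (5076 to 5233) over 3233 cells and 4906 CPM (4569 to 5262) over 160. In cycling cells those with at least 2 Myc UMIs held 7463 CPM (7064 to 7879) against 8036 (7925 to 8148) with IL-15SA, and 6514 (6142 to 6904) against 6771 (6675 to 6868) in the combination library. The level of other members was in none of the 4 sets higher in Myc-rich cells beyond counting error. In cycling cells of the IL-15SA library it was lower in Myc-rich cells, with intervals that did not overlap. The values concern Myc RNA, and MYC protein was not measured.

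**Figure D5:**
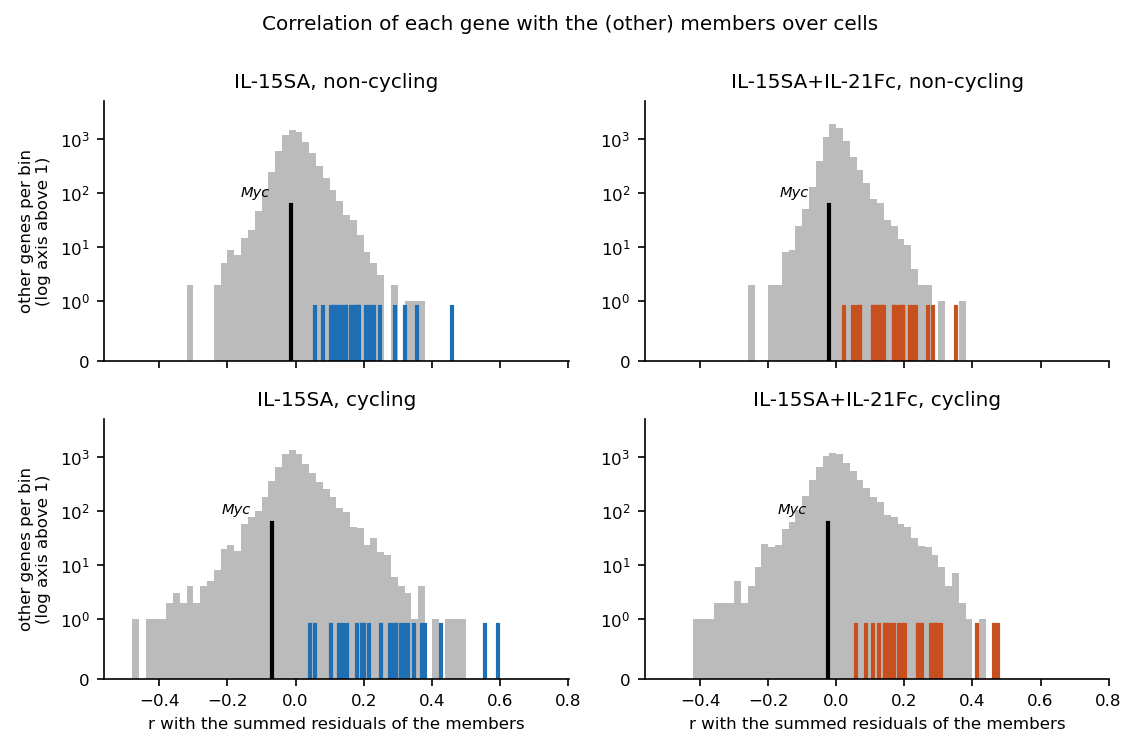
Distribution over genes of Pearson r with the summed residuals of the members (grey bars, number of genes outside the 32 per bin of 0.02, log axis above 1), with each member's r against the other members as a coloured line and Myc as a black line, for both classes and libraries. Nearly all members lie right of the bulk of genes, and Myc lies within it at -0.07 to -0.01.

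The 10 genes outside the list that followed the members most closely in non-cycling cells were, by mean r over both libraries, Slc25a5 (0.35), Eif5a (0.34), Ptma (0.29), Banf1 (0.29), Ranbp1 (0.26), Mif (0.25), Eif2s2 (0.24), Ldha (0.23), Mcm2 (0.23) and Hspa9 (0.22). They were chosen by this value, over 2130 and 3975 cells, among genes of at least 20 CPM. Genes of ribosomal proteins, mitochondrial genes and gene models (Gm and Rik names) were left out and could not enter this list. Slc25a5 exchanges ADP and ATP across the inner mitochondrial membrane and had the same level in both libraries, 1591 and 1600 CPM (ratio 1.01, 0.98 to 1.03). The other 9 had a lower level in the combination library, and for Hspa9 the interval included 1. The largest of these differences were those of Mif, a secreted cytokine, at 975 and 726 CPM, 1.34-fold lower (1.30 to 1.39), and of Ldha, lactate dehydrogenase, at 978 and 756 CPM (ratio 0.77, 0.75 to 0.80). Ranbp1, a partner of Ran, was at 401 and 318 CPM, 1.26-fold lower (1.20 to 1.33). Mcm2 is a replication gene that also served to class the cells, so its place in this list within non-cycling cells is limited by the class to few UMIs.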

How the data were processed

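GEXSCOPE microwell libraries of sorted cells were sequenced as paired-end reads, per the labels' protocols. The deposited values are raw UMI counts per gene and barcode. The submitters' processing notes list mm10 as the build and cutadapt, featureCounts, Scanpy and Seurat 4 as tools, with no order. For the aligner, annotation, cell calling, strand setting and reads matching several loci, the entry is: not given in the sources used here. Levels of genes with processed copies, such as Npm1 and Ran, are therefore uncertain. Sample titles set the groups, and the title of the series names other treatments.

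Barcodes with at least 200 genes, at most 20% mitochondrial UMIs and 1 Ncr1 UMI were used; the first 2 rules removed 0 and 5 barcodes. Totals were 30893388 and 35336180 UMIs, with at least 1292 and 1123 per barcode. Scrublet marked 2 and 0 barcodes, too few to have worked, so removing the 5% of barcodes with the highest scores (419 and 622) was an alternative. Summed counts were divided by the total of the class. Intervals are exact Poisson, conditional binomial or Clopper-Pearson (shares) intervals at 95%. UMIs were thinned with a fixed seed. Residuals used a negative binomial with theta 100. The functions were tested on simulated data. No test between groups was possible, and the spread between samples is unknown. The members and gene lists were chosen with earlier results of these data known. Named were Myc, in each role the genes with the highest level and the largest and smallest library difference, the 3 highest and 3 lowest cycling ratios, 2 extremes at each end of the other lists and the 10 nearest genes; Ncl, Nop56, Dkc1, Wdr12, Noc2l, Nop58 and genes beside them were added after their values were seen. Gene positions are from GENCODE M21 and promoters from RefSeq. Python 3.11.15, numpy 2.4.6, scipy 1.17.1, scanpy 1.11.5 and matplotlib 3.10.9 were used.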

Additional observations from a re-analysis of the deposited data

How the results depend on the processing

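No paired analysis was possible because both treatments are single libraries. Directions of the median library and cycling differences held under every alternative run for them. The median library difference ran from -0.23 to -0.12 in non-cycling cells over 12 alternatives. Without barcodes with tumour or stroma UMIs it was -0.31 in cycling and -0.32 in all Ncr1-positive cells. The number of members at least 20% lower in non-cycling cells, 2 as reported, was 4 with at least 2 Ncr1 UMIs, 4 without tumour or stroma barcodes, 5 with cycling at 8 or more and non-cycling at 0 cycle UMIs, 6 with classes by the cycle share of all UMIs and 1 with 5 CPM added. With classes by that share, the cycling difference of the IL-15SA library was 0.40. The cause of these changes was not tested.

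Co-variation depended on depth, by construction where UMIs were removed. In the order non-cycling IL-15SA, non-cycling combination, cycling IL-15SA and cycling combination, r was 0.22, 0.22, 0.24 and 0.26 with UMIs thinned to 1000, and 0.32, 0.32, 0.37 and 0.39 in cells of 1000 to 4000 UMIs. With classes by the cycle share it was 0.42 and 0.33 in non-cycling cells. In the combination library it was 0.35 in non-cycling and 0.50 in cycling cells without tumour or stroma barcodes, 0.33 in non-cycling cells at 0 cycle UMIs and 0.53 in cycling cells with at least 2 Ncr1 UMIs. In cycling cells of the IL-15SA library it was 0.56 with log-transformed counts. The alternatives for Myc and for S-leaning over G2/M-leaning cells were chosen after seeing the data. The latter difference ran from 0.53 to 0.71 and from 0.42 to 0.63. For Myc with the other members, r was 0.0367, 0.0221, 0.0364 and 0.0585 with log-transformed counts in the same order, -0.0303 in cycling IL-15SA cells of 1000 to 4000 UMIs and 0.0209 in cycling combination cells without tumour or stroma barcodes.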

Other observations

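The members were also set beside gene lists outside ribosome production, as values with no explanation. A lower level in the combination library was not particular to the members. In non-cycling cells the median log2 ratio of combination over IL-15SA was -0.72 for granzymes and perforin, with 9 of 10 genes below 0, and -0.29 for glycolysis genes, with 12 of 13 below 0. It was -0.09 for cytosolic ribosomal proteins, with 67 of 85 below 0, and 0.47 for interferon response genes, with 0 of 17 below 0. The members stood at -0.19, and over all genes the median was 0.01 with 47.3% below 0. In cycling cells their sum had an r of 0.26 in the IL-15SA and 0.35 in the combination library with the genes of cytosolic ribosomal proteins, and in non-cycling cells 0.10 and 0.12. With glycolysis genes r was 0.17 and 0.14 in non-cycling and 0.24 and 0.29 in cycling cells. With interferon response genes it was -0.01 and -0.07 in non-cycling and -0.14 and -0.06 in cycling cells. With granzymes and perforin it was 0.09 in cycling cells of the IL-15SA library and -0.14 in those of the combination library, and this difference was not tested. In cycling cells the sum went against the G2/M genes, with r of -0.41 and -0.31, and with the S genes, with r of 0.28 and 0.24. In non-cycling cells its r was 0.24 and 0.25 with the S genes and -0.01 and 0.02 with the G2/M genes. The median log2 ratio of combination over IL-15SA was there -0.16 for 17 S genes, with 14 below 0. For 15 G2/M genes it was -0.11, with 9 below 0.

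The library difference was also read at matched depth. In non-cycling cells of 1000 to 2000 UMIs the summed members were at 5967 CPM (5794 to 6143) in the IL-15SA and 5013 CPM (4926 to 5102) in the combination library, in cells of 2000 to 4000 UMIs at 5986 and 5392 CPM, and in cells of 4000 to 8000 UMIs at 7049 and 6578 CPM. The median log2 ratio of the members was -0.21, -0.10 and -0.09 in these ranges, against -0.008, -0.002 and 0.018 over all genes. There 21, 20 and 18 of 27 members lay below 0, against 50.9%, 50.5% and 47.6% of all genes. In cycling cells the median of the members was -0.13, -0.19 and -0.16, against -0.013, -0.036 and 0.012 over all genes. Members below 0 were there 25 of 29, 26 of 29 and 21 of 27, against 51.5%, 56.0% and 47.5% of all genes.

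Ncr1-negative barcodes, 594 and 1380, held 8281 and 7894 CPM of the members. Of these, 42 and 222 had at least 10 tumour or stroma UMIs, and there the sum was 9892 and 9446 CPM with Myc at 217 and 126 CPM. Among Ncr1-positive barcodes with at least 10 such UMIs, 93 and 231, the sum was 9640 and 10455 CPM and Myc 179 and 191 CPM, below the 301 and 276 CPM in Ncr1-positive barcodes with fewer than 2.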
